A study of Homo sapiens with 4 samples.

Results

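The region studied here was a 1 Mb window of chromosome 10, positions 73000001 to 74000000 on build hg19, which contains the genes SLC29A3, CDH23, PSAP, CHST3 and SPOCK2. Its members were the peaks of PPARG (peroxisome proliferator-activated receptor gamma) whose midpoint lay in the window. There were 9 of them among 3644 peaks in all, 7 of 1419 in the list of the cell line NCI-H1993 and 2 of 2225 in that of NCI-H2347. The window was chosen by its number of NCI-H1993 peaks, the highest of any window on a fixed 1 Mb grid. The counts of peaks are therefore a description, and no test was made on them. Peaks had been mapped by ChIP-seq (chromatin immunoprecipitation and sequencing) with 1 ChIP library per line, so differences between the lines have no check by replicates.

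NCI-H1993 and NCI-H2347 are human lung adenocarcinoma lines. Both carried a bacterial artificial chromosome (BAC) transgene that encodes PPARG with the LAP tag, which contains EGFP. Chromatin was fixed with 1% formaldehyde for 10 minutes, sheared to fragments of 200 to 600 bp and precipitated with a goat antibody against EGFP, so PPARG without the tag was not the target of the antibody. Both lines were grown in medium with 5% serum. The labels give no ligand treatment, do not say what PIO, a part of each list's name, stands for and do not say whether a line was 1 clone. The 2 input libraries, 1 per line, were not analysed here.

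PPARG is a nuclear receptor that is activated by fatty acids and related ligands. It binds DNA together with a retinoid X receptor, typically at direct repeats of the half-site AGGTCA with a single base between the copies. It is best known as the regulator of fat cell formation, and many of its binding sites lie in introns or far from genes. The genes of the window have different tasks. SLC29A3 encodes a nucleoside transporter of lysosomes and other internal membranes, and CDH23 a long cadherin that forms part of the tip links of hair cells in the inner ear. PSAP encodes prosaposin, the precursor of the saposins, which help lysosomal enzymes to break down sphingolipids. CHST3 encodes a sulfotransferase that adds sulfate to chondroitin, and SPOCK2 an extracellular proteoglycan called testican-2.

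The peaks fell into 2 stretches. The first held 3 NCI-H1993 peaks and both NCI-H2347 peaks, all inside the SLC29A3 and CDH23 genes. The second held 4 NCI-H1993 peaks, all beyond SPOCK2. Between the stretches, 483 kb were without a peak of either list, from 73374004 to 73857260, and this interval contained the whole of PSAP, CHST3 and SPOCK2. The NCI-H1993 midpoints on either side of it were 484 kb apart, against a median of 789 kb between neighbouring peaks of that list. Of the 5 genes, 2 therefore held a peak and 3 did not, although the region is named after all of them.

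**Figure D1:**
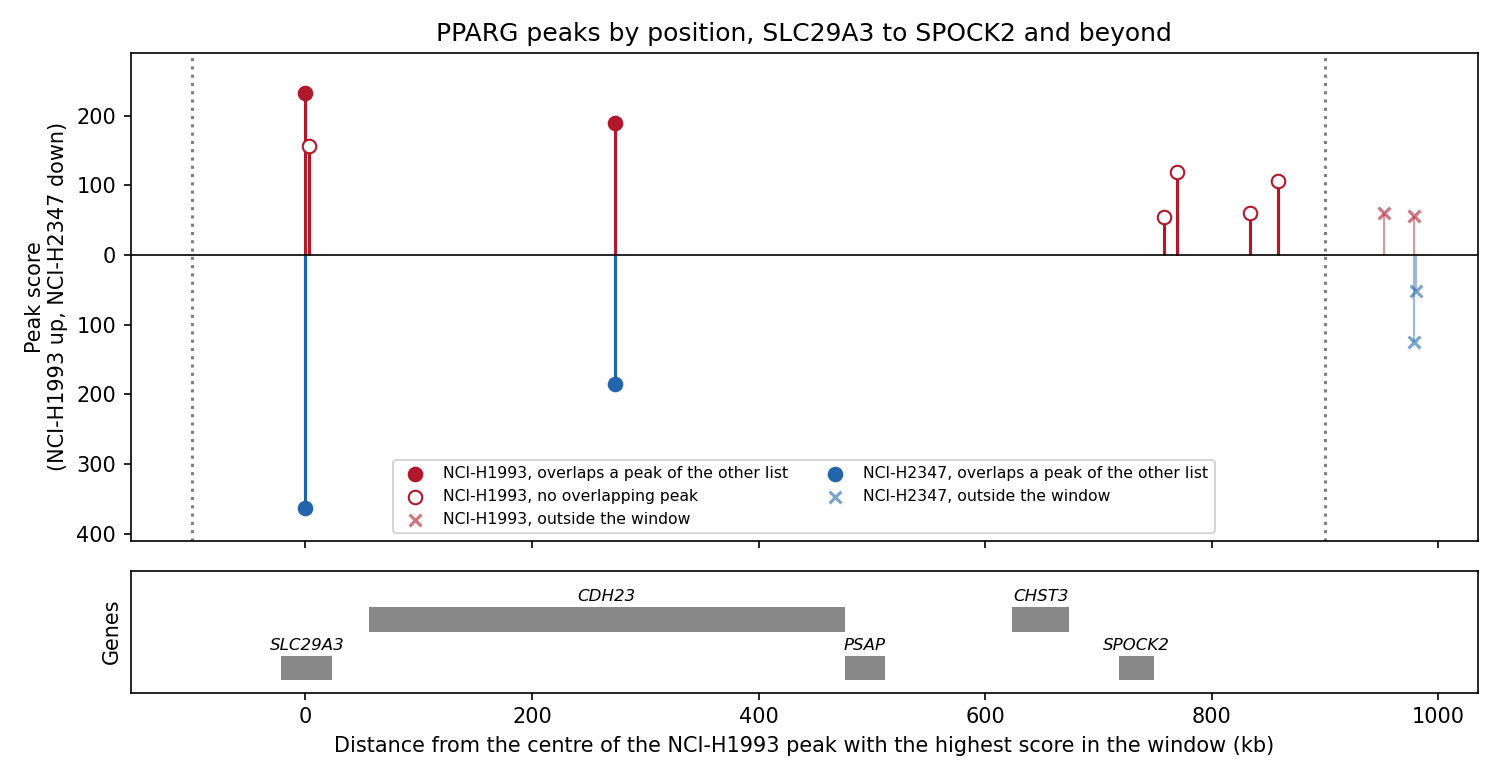
PPARG peaks of the window by position (x axis: distance in kb from the centre of the strongest NCI-H1993 peak of the window) and score (y axis, NCI-H1993 upward, NCI-H2347 downward), with the spans of the 5 genes below and the edges of the window as dotted lines. Filled points overlap a peak of the other list, open points do not, and crosses are the nearest peaks above the window; the 4 peaks beyond SPOCK2 are all open.

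SLC29A3 spans 73079 to 73124 kb and held the strongest site of the region in both lines. In NCI-H1993 the peak ran from 73099497 to 73100645 and had a score of 233, which ranked 21 in the list and first of the 90 NCI-H1993 peaks on chromosome 10. The score is the authors' own value for each peak, given by the peak caller, and peaks were ranked by it only within their own list. In NCI-H2347 the peak ran from 73099450 to 73100569 and had a score of 362, which ranked 35 in that list and first of its 112 peaks on chromosome 10. Both lists thus placed the same SLC29A3 site at the top of the chromosome. The peaks had 1073 bp in common, 93.4% of the NCI-H1993 peak and 95.8% of the NCI-H2347 peak, and their midpoints were 61.5 bp apart.

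The SLC29A3 site lay inside the gene and not at its start. Its NCI-H1993 midpoint was 21.1 kb from the start and 23.9 kb from the end of the gene. Ends of genes were known to the nearest kb, so such distances hold to about 1 kb, and exons and introns were not placed. A further NCI-H1993 peak followed in the same gene, from 73102926 to 73103604, with a score of 157 and rank 103. Its midpoint was 3.19 kb beyond that of the first peak and 24.3 kb from the gene start. NCI-H2347 had no peak there, and its nearest peak, the shared site, ended 2.36 kb away. SLC29A3 was therefore listed with 2 peaks in NCI-H1993 and 1 in NCI-H2347. Of the 60 neighbouring pairs of NCI-H1993 peaks with midpoints within 10 kb, this was the 1 pair in the window.

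CDH23 spans 73156 to 73576 kb, the longest gene of the 5, and held the other site present in both lines. The NCI-H1993 peak ran from 73373077 to 73373852, with a score of 190 and rank 52, the third highest on the chromosome. The NCI-H2347 peak ran from 73372905 to 73374004, with a score of 184 and rank 213, the ninth on the chromosome in that list (rank 9). The NCI-H1993 peak lay wholly inside the NCI-H2347 peak and took up 70.5% of it, and the midpoints differed by 10 bp. The site lay near the middle of the gene, 217 kb from its start and 203 kb from its end. RefSeq lists the protein-coding genes C10orf105 and VSIR, the latter encoding an inhibitory receptor of immune cells, between CDH23 and PSAP in the order of gene starts, on the later build GRCh38. The order does not imply a gap, as the hg19 spans of CDH23 and PSAP meet at 73576 kb. Positions of C10orf105 and VSIR on hg19 were not used here, so the site was not placed relative to them.

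The 2 shared sites were 2 of the 7 NCI-H1993 peaks and both NCI-H2347 peaks of the window. Over the whole lists, 34.2% of NCI-H1993 peaks and 21.7% of NCI-H2347 peaks overlapped a peak of the other list by at least 1 bp. The NCI-H1993 count in the window is near that background, and 2 peaks are too few to set against the other. Both sites were in the top 10% of both lists by score. Among shared peaks only, the SLC29A3 peak was above 96.9% in NCI-H1993 and 94.4% in NCI-H2347. The CDH23 peak was above 92.4% in NCI-H1993 and 76.0% in NCI-H2347. Of 486 overlapping pairs, 33 (6.79%) lay in the top 10% of both lists by score, and 4 of these were on chromosome 10. That chromosome held 29 of the 486 shared NCI-H1993 peaks. Of the 4 pairs, 2 were those in SLC29A3 and CDH23. Ordered by the lower of its score percentiles, the SLC29A3 pair was second of the 486 and the CDH23 pair was number 31.

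PSAP, CHST3 and SPOCK2 held no peak of either list. For PSAP, at 73576 to 73612 kb, the nearest peak was the CDH23 site, 203 kb away in both lines. For CHST3, at 73724 to 73774 kb, the nearest NCI-H1993 peak was 83.8 kb and the nearest NCI-H2347 peak 305 kb away. SPOCK2, at 73818 to 73849 kb, had an NCI-H1993 peak 8.82 kb away, while the nearest NCI-H2347 peak was at 230 kb. RefSeq places SPOCK2 on the minus strand, so that NCI-H1993 peak lay upstream of the end at which the gene starts. A gene without a peak is one where nothing passed the authors' threshold, as signal under it is not listed and the read depth is unknown.

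The 4 peaks beyond SPOCK2 were listed in NCI-H1993 only. Their outer midpoints were 100.5 kb apart. The first ran from 73857260 to 73858372 with a score of 54.95, close to the lowest score of the list, 50.03. The next ran from 73868411 to 73870217 and had the highest score of the 4, 119.78, with rank 221. A peak from 73933155 to 73934246 had a score of 59.7, and the last, from 73958092 to 73958507, had a score of 107 and rank 299. The scores thus alternated along the chromosome, with 2 peaks above 100 and 2 below 60. In RefSeq the next protein-coding genes after SPOCK2 are ASCC1, which encodes a subunit of a transcriptional coactivator complex, then ANAPC16, a subunit of the anaphase-promoting complex, and DDIT4, a stress-induced inhibitor of mTOR signalling. That order is from GRCh38, and the peaks were not assigned to these genes because their hg19 spans were not used.

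No NCI-H2347 peak was near these 4. The nearest one was the peak from 74078484 to 74079094 above the window, and the distances between midpoints were 221, 209, 145 and 120 kb, in order along the chromosome. Distances of this size were common. Among 925 NCI-H1993 peaks without an overlapping peak, on chromosomes with peaks of both lists, the median distance to an NCI-H2347 peak was 337 kb (quartiles 81.1 and 1041 kb), and 665 (71.9%) were more than 100 kb away. The unshared SLC29A3 peak was on the other side of that spread, since 48 of the 925 (5.19%) had an NCI-H2347 peak with its midpoint within 10 kb.

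Ranks of the score separated the 2 stretches of the window in NCI-H1993. The 3 peaks in SLC29A3 and CDH23 scored 157, 190 and 233, above 92.7%, 96.3% and 98.5% of the list. The 4 peaks beyond SPOCK2 scored from 54.95 to 119.78, above 19.0% to 84.4% of the list, so the groups did not overlap by score. They did overlap by score per kb of width. The peak from 73958092 had 256 per kb, against 203, 231 and 244 in SLC29A3 and CDH23. The other peaks beyond SPOCK2 had 49.4, 66.3 and 54.7. The stretches were drawn from the positions of these few peaks. Of the 7 peaks, 5 scored at least 100, against 23.8% of the list, and 3 scored at least 150, against 8.74%. In NCI-H2347 both peaks scored at least 150, against 33.0% of the list at 100 or more and 16.4% at 150 or more. The median score was 120 in the window, 69.8 over the NCI-H1993 list and 76.4 over the other 83 peaks of chromosome 10. Score and position were not tested against each other, because the peaks of a library are not replicates.

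**Figure D2:**
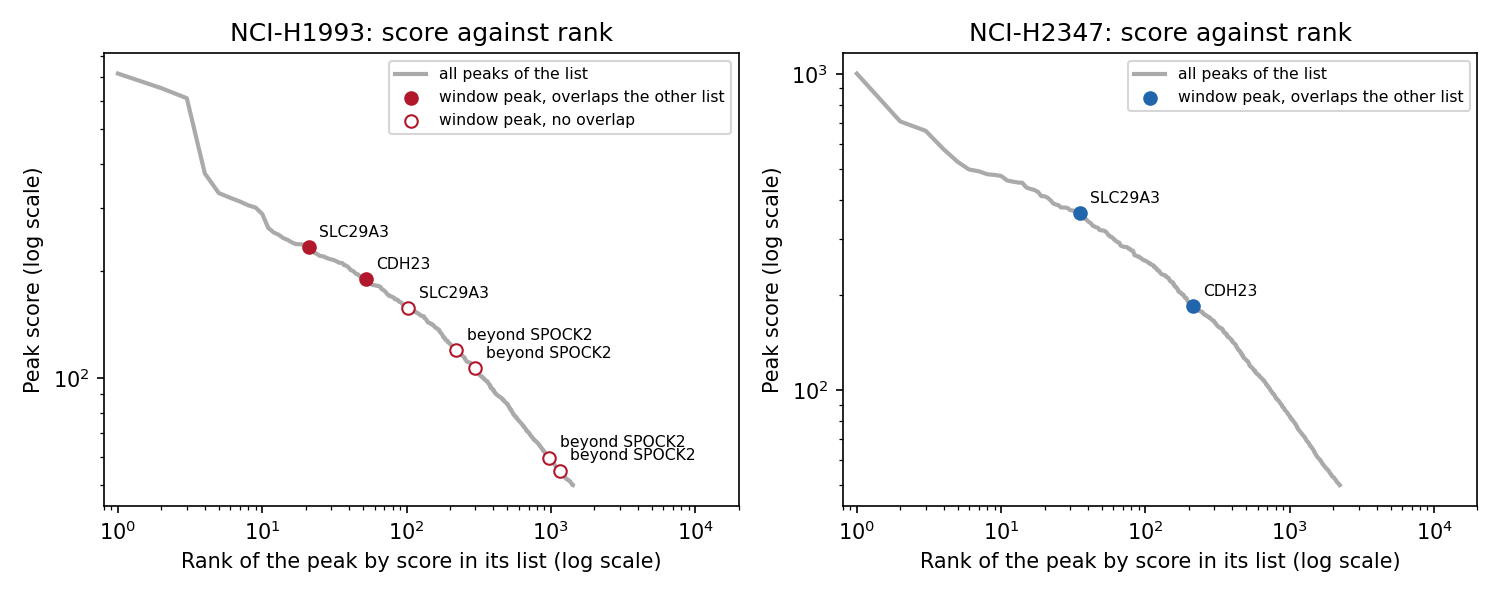
Score of each peak (y axis, log scale) against its rank in its list (x axis, log scale), with all peaks as a grey line and the window peaks as points named by the gene that holds them. In NCI-H1993 the peaks in SLC29A3 and CDH23 rank 21, 52 and 103, ahead of all 4 peaks beyond SPOCK2; in NCI-H2347 the peaks rank 35 and 213.

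In NCI-H1993 the widths along the chromosome were 1149, 679 and 776 bp in SLC29A3 and CDH23, then 1113, 1807, 1092 and 416 bp beyond SPOCK2. The list had a median of 731 bp, so the window held both wide and narrow peaks. The 2 weakest peaks, with scores of 54.95 and 59.7, were wider than 90.1% and 88.9% of the list. Such a combination was not rare, as 44 of 224 peaks (19.6%) of at least 1000 bp scored under 60, against 31.9% of all NCI-H1993 peaks. The peak from 73958092 was the narrowest of the window at 416 bp, and 1.83% of the list was narrower. Of 28 NCI-H1993 peaks of 416 bp or less, 7 scored at least 100, this one included, a share near the 23.8% of the whole list. The NCI-H2347 peaks were alike in width, 1120 bp in SLC29A3 and 1100 bp in CDH23, against a median of 832 bp.

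**Figure D3:**
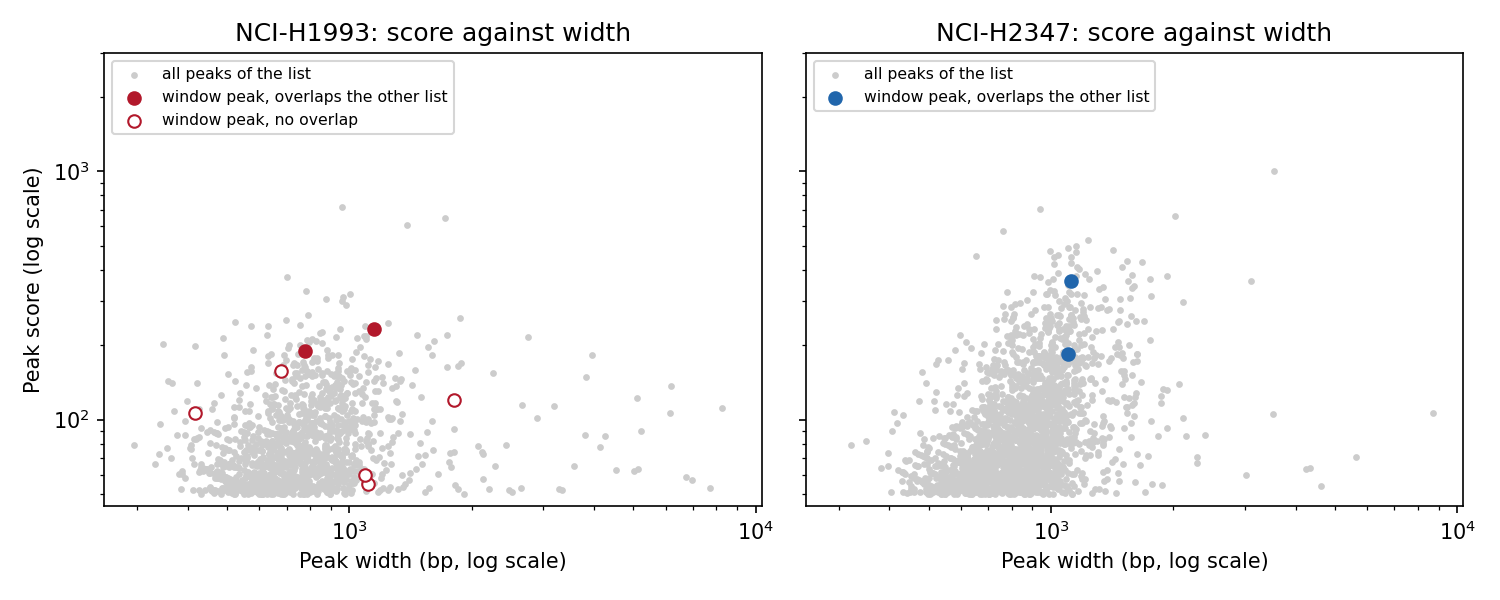
Score (y axis, log scale) against width in bp (x axis, log scale) for all peaks of each list in grey and the window peaks in colour, filled where they overlap the other list. The NCI-H1993 window peaks spread from 416 to 1807 bp, and the 2 with the lowest scores are among the wider peaks of the list.

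The edges of the window cut through a run of NCI-H1993 peaks at the upper end. The last member, at 73958092, was followed above the window by NCI-H1993 peaks from 74051949 to 74052587, with a score of 60.6, and from 74078242 to 74079185, with a score of 56.8. The latter overlapped the NCI-H2347 peak from 74078484, whose score was 124, and another NCI-H2347 peak from 74080220 had a score of 50.9. That site therefore ranked low in the NCI-H1993 list, at 1067 and above 24.8% of its peaks. It ranked higher in the NCI-H2347 list, at 502 and above 77.4% of its peaks. The strength of binding was not compared between the lines. Below the window the nearest peaks were far off, 592 kb from the edge in NCI-H1993 (from 72407972, score 76.4) and 835 kb from it in NCI-H2347 (from 72164935, score 60.3). Counted over 1 Mb from the SLC29A3 site onward, NCI-H1993 had 9 peaks and NCI-H2347 had 4, and the fullest such stretch of NCI-H1993 on another chromosome held 7. Counted over 250 kb from the first peak beyond SPOCK2, NCI-H1993 had 6 peaks and the fullest stretch on another chromosome held 5. In NCI-H2347 the fullest stretches of the list held 13 and 9. The NCI-H1993 starts were those with the highest count among the window peaks, and the window was itself chosen for its count. These counts are therefore a description.

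Among fixed 1 Mb windows, 892 held at least 1 NCI-H1993 peak, and 557 of these held a single one. The chromosome 10 window had 7, and 3 windows had 6, on chromosomes 7, 17 and 20. The window on chromosome 17 from 57000001 was listed with 6 NCI-H1993 and 12 NCI-H2347 peaks, and 5 of the 6 were shared, against 2 of 7 here. Its 6 NCI-H1993 peaks had a median score of 63.8, against 120 for the chromosome 10 window. The windows on chromosomes 20 and 7 had medians of 73.4 and 63.2, with 1 and 2 of their 6 peaks shared. In these 4 windows, 5 peaks on chromosome 10 scored at least 100, against 2, 2 and 1 on chromosomes 17, 20 and 7. In NCI-H2347 the chromosome 10 window was one of 250 windows with 2 peaks. These values describe single windows of single libraries, and no test of the difference between windows was made.

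**Figure D4:**
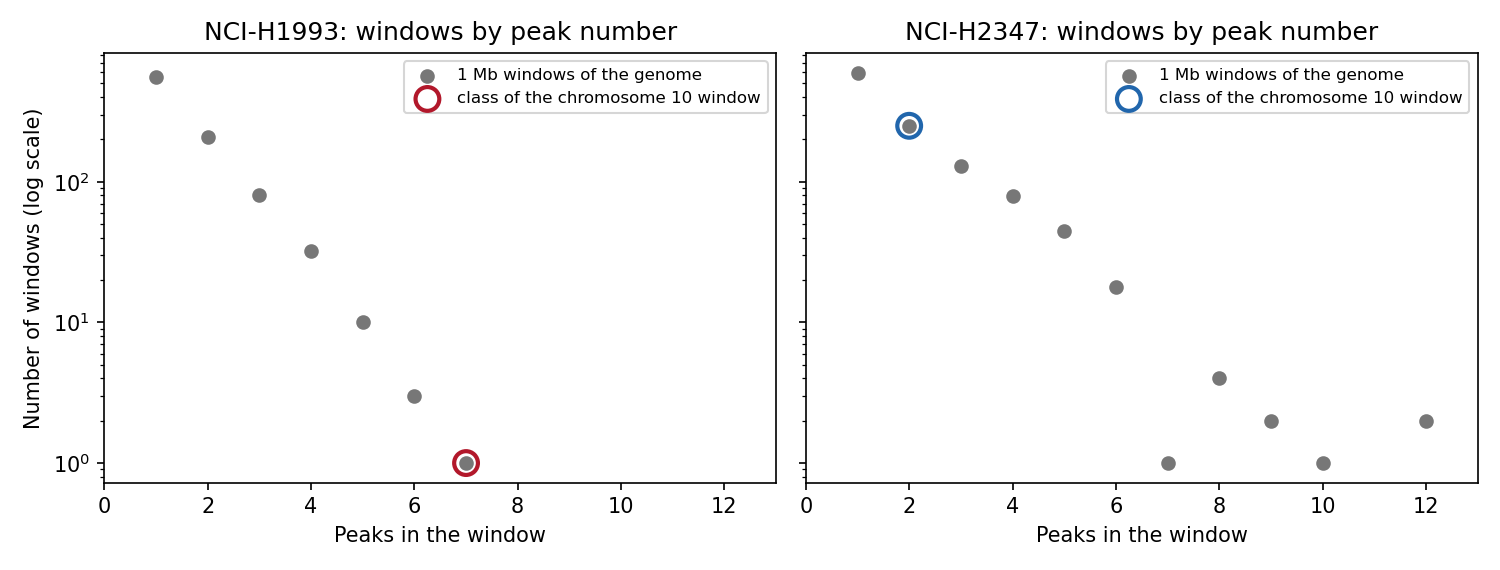
Number of 1 Mb windows (y axis, log scale) by the number of peaks they hold (x axis) in each list, with windows without a peak left out and a ring around the class of the chromosome 10 window. In NCI-H1993 that window is the only one with 7 peaks; in NCI-H2347 it is one of 250 windows with 2.

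The window made up a part of the strong NCI-H1993 peaks of chromosome 10. Of 33 NCI-H1993 peaks on the chromosome with a score of at least 100, 5 (15.2%) were in the window, and of 32 in NCI-H2347, 2 (6.25%) were. For peaks of any score the counts were 7 of 90 (7.78%) and 2 of 112 (1.79%). The window was chosen for its NCI-H1993 count, and that choice favours a larger NCI-H1993 share in it. Chromosome 10 held 9.76% of all NCI-H1993 peaks with such a score (95% Wilson interval 7.04% to 13.4%) and 4.36% of those of NCI-H2347 (3.10% to 6.09%). Without the window the shares were 8.41% (5.88% to 11.9%) and 4.10% (2.89% to 5.79%). Over peaks of any score, chromosome 10 held 6.34% of the NCI-H1993 list (5.19% to 7.73%) and 5.03% of the NCI-H2347 list (4.20% to 6.02%), and without the window 5.88% and 4.95%. For peaks of any score the intervals of the lines overlap, with or without the window. At a score of at least 100 they do not overlap, with or without the window. A score of 100 keeps 23.8% of one list and 33.0% of the other, and depth is unknown. No conclusion about the lines was therefore drawn from the chromosome 10 shares. The intervals cover counting error only and treat the peaks of a library as independent, which was not tested.

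The DNA under the peaks was not read, because no sequence of build hg19 was used. Promoter sequences from RefSeq, on GRCh38, were searched for the half-site AGGTCA on both strands. They reach from 250 bases before to 50 bases after a gene's start. Of the 5 genes, 4 had such sequences, 9 in all for SLC29A3, CDH23, CHST3 and SPOCK2, and 0 of the 9 held the half-site, against 13.8% of 35116 promoters. Sequences this few, 9 from 4 genes, cannot show a lack of the half-site against that share. The letters are absent from these windows only. The peaks lay 8.82 kb or more from the outer start of each of these 4 genes. CDH23, CHST3 and SPOCK2 had more than 1 such sequence, and their further starts were not placed on hg19.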

How the data were processed

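Each deposited list had 5 columns, which hold a peak's position, its name and its score. The score is the authors' value from the peak caller, MACS 1.4.2 on hg19 per the submitters' processing notes. Each list came from 1 library. The aligner, the read filters, the calling threshold and the role of the input are not given in the sources used here. Starts were converted to 1-based positions. A peak was a member if its midpoint lay in the window, and shared if it overlapped a peak of the other list by at least 1 bp. Spans of the 5 genes were given on hg19 to the nearest kb, strands and gene order by RefSeq on GRCh38. The named items were the 5 genes and their RefSeq neighbours, every member, and the nearest peaks outside the window. The members and lists were chosen with earlier results of these data known. No test was made: with 1 library per line there are no replicates, and depth is unknown. Since depth raises both the number and the scores of peaks, scores were ranked within a list only. Code was checked on simulated lists with Python 3.11.15, numpy 2.4.6, pandas 2.3.3, scipy 1.17.1 and matplotlib 3.10.9. Alternatives covered the score minimum, the edges of the window, the definition of sharing, the gene spans and the ranking. The search of peaks for the PPARG motif and the gene models of the same build were not run, as they need sequence or gene models of hg19.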

Additional observations from a re-analysis of the deposited data

How the results depend on the processing

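The number of NCI-H1993 peaks, 7 in the window, was 3 with the window moved 500 kb lower and 6 with it moved 500 kb higher. It was 3 in the lower and 4 in the upper 500 kb of the window, 5 with a score of at least 100 and 6 with peaks within 10 kb merged. Leaving out peaks wider than 2500 bp removed none. The number in NCI-H2347 was 2 under these alternatives, except for 0 in the upper 500 kb. With the window 500 kb higher the members changed. The 2 NCI-H2347 peaks were then those from 74078484 and 74080220, not those in SLC29A3 and CDH23. The 6 NCI-H1993 peaks were then the 4 beyond SPOCK2 and the 2 that follow above the window. Counting 1 Mb from the first peak onward, added after the data were seen, gave 9 and 4. The number shared was 2 by 50% reciprocal overlap, by midpoints within 250 bp, by a gap of up to 500 bp and among peaks that scored at least 100, and 3 by midpoints within 10 kb, which adds the unshared peak in SLC29A3. The number of NCI-H1993 peaks in the spans of the 5 genes, 3, stayed at 3 with spans widened by 5 kb or with any overlapping base. It was 4 with spans widened by 10 kb, which adds the peak nearest to SPOCK2. Spans of other genes were not counted, so a peak outside these spans may lie inside another gene. The median percentile of the NCI-H1993 peaks was 84.4 by score, 72.2 among chromosome 10 peaks, 88.9 by width and 92.7 by score per kb of width. The chromosome 10 share at a score of at least 100, with the window peaks or without them, was also added after the data were seen. The motif alternatives and the gene models of the same build were not run. No paired analysis was possible because each line had a single ChIP library.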
